A study of Mus musculus with 8 samples.

Results

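The genes described here encode the synaptic vesicle and the machinery that releases it, measured in the cerebellum of mice labelled as null or wild-type for Capicua (Cic). The 44 members were taken from a given list of gene symbols, and their probe sets were those annotated with 1 member symbol alone. All 44 were measured, by 636 of the 241576 probe sets, among 20352 genes in all. They fall into 3 synapsins, 7 other vesicle membrane proteins, 15 synaptotagmins and Doc2 calcium sensors, 9 SNAREs and complexins, and 10 proteins of the active zone and of vesicle priming.

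The samples were 4 cerebella of the genotype Cic-L-null and 4 of the genotype wild-type. All 8 came from mice aged 28 days, on a mixed Swiss Webster (CD-1) background, and the RNA of each was read on its own Affymetrix Mouse Gene 1.0 ST array. The study's design text counts 4 mice of each genotype, so the spread within a group is taken as that between mice. The labels do not describe the allele beyond its name, although Capicua, a DNA-binding repressor that works together with ataxin-1, is known to be made in a long and a short form. RNA of wild-type replicate 1 was extracted with Trizol and cleaned on RNeasy columns, according to its label, and the other labels cite the manufacturer's protocol. Y-linked genes were above the level of silent genes in 3 Cic-L-null and 2 wild-type arrays. Cic itself averaged 7.54 ± 0.061 in Cic-L-null and 8.78 ± 0.28 in wild-type cerebella on the log2 scale (SD, n = 4 each), a difference of -1.25 (SE 0.12, limma adjusted p = 0.00818).

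Transmitter release runs through these proteins in a fixed order. Vesicles are loaded with transmitter and tied to each other and to actin by synapsins. They are tethered at the active zone by RIM, Bassoon and Piccolo, and primed by Munc13 proteins. Calcium entry is then read by synaptotagmins, and the SNARE proteins on the vesicle and the plasma membrane fuse both membranes under the control of complexins. In the cerebellum the same machinery serves granule cell parallel fibres, interneurons and Purkinje cells, with paralogues that differ between synapses.

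Values are log2 expression values made by the authors with RMA, and a gene value is the mean over its probe sets. Differences are Cic-L-null minus wild-type in log2 units, so that 1 unit is a doubling. Because probes differ in how brightly they bind, a value is compared between arrays for the same gene and not between genes. A gene was called when its limma p, adjusted over all 20352 genes by the Benjamini-Hochberg method, was under 0.05. Of the 44 members, 43 averaged above 6.21, the 95th percentile of 985 olfactory receptor genes, which are taken as silent here. The exception was Cplx3, at 5.67 in Cic-L-null and 5.66 in wild-type cerebella. Complexin 3 is known from the ribbon synapses of the retina.

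Of the 44 members 1 was called, Syn3, which was higher in the Cic-L-null cerebellum. Over all genes 28 of 20352 were called (0.138%), 18 of them higher (0.0884%) and 10 lower (0.0491%). At an unadjusted p under 0.05 there were 9 members (20.5%), 6 higher and 3 lower, against 9.26% of all genes (4.56% higher and 4.7% lower). Without Cic-L-null replicate 1 this count of members was 5, with 1679 of all genes. In a fit of only the 14010 genes above the silent level it was 10, with 1618 of those genes. With Syn3 set aside, the reported fit had 8 of 43 members (18.6%). The groups did not overlap for 4 members in the higher direction and 2 in the lower, against 3.02% and 2.91% of all genes, or 5.94% in either direction. These members were Syn2, Syn3, Syt1 and Vamp2, with all Cic-L-null values above all wild-type values, and Syngr3 and Syt2, with all Cic-L-null values below. The median difference was 0.039 over the members and -0.0071 over all genes. A difference above 0 was found for 30 members (68.2%, or 67.4% without Syn3), against 47.0% of all genes, dim ones included. The members share arrays, so these shares describe the 8 samples and carry no test. In RNA of whole tissue, fewer cells of a type and less RNA per cell cannot be told apart.

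**Figure D1:**
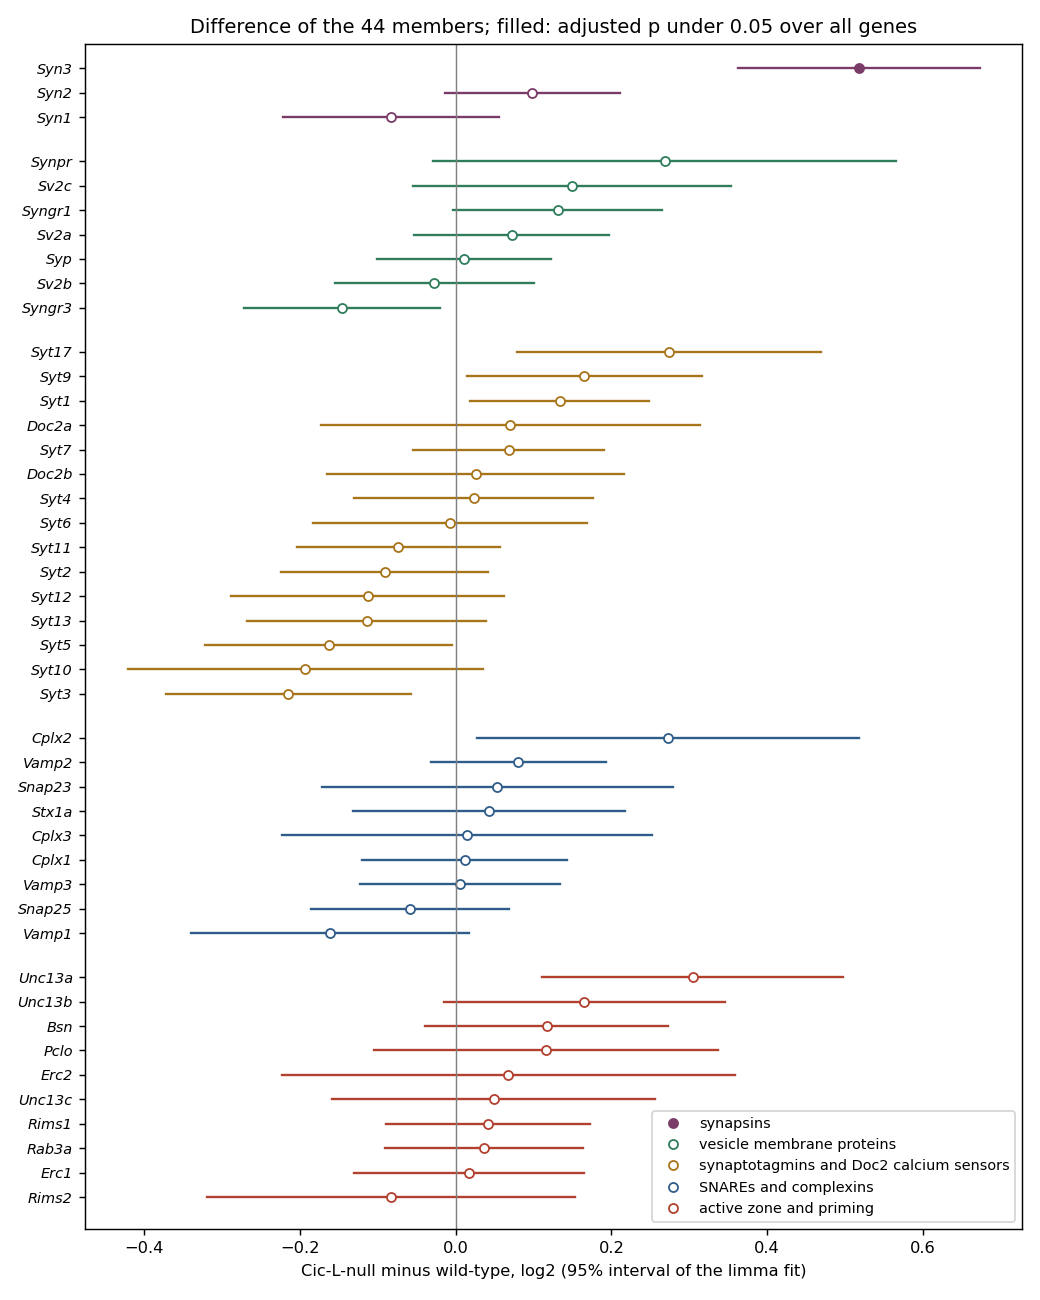
Difference of each of the 44 members in log2 units (horizontal axis, Cic-L-null minus wild-type), grouped by role, with the 95% interval of the limma fit as a line. Filled points are called over all genes. Syn3, at 0.52, is the only filled point and the farthest from 0, and the other members lie between -0.21 and 0.30.

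Synapsins coat the outside of the vesicle and tie it to other vesicles and to actin, and their phosphorylation frees vesicles for release. Synapsin III is the paralogue that in rodents is most prominent in developing neurons, whereas synapsins I and II are the major forms of mature terminals. Syn3 had values of 8.30, 8.22, 8.35 and 8.36 in the Cic-L-null cerebella, against 7.93, 7.81, 7.75 and 7.66 in the wild-type cerebella. The lowest Cic-L-null value thus lay above the highest wild-type value. Syn3 rose by 0.52 (SE 0.070, 95% interval 0.36 to 0.67), or 1.43-fold, with a limma adjusted p of 0.0258. Its means were 8.31 ± 0.067 in Cic-L-null and 7.79 ± 0.11 in wild-type cerebella (SD, n = 4 each).

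The size of the Syn3 difference held from 0.48 to 0.57 when each array was left out in turn, but the call was kept only without wild-type replicate 1, where the adjusted p was 0.03. The adjusted p was 0.0784, 0.0592, 0.0527 and 0.0882 without Cic-L-null replicates 1, 2, 3 and 4. It was 0.0995, 0.0898 and 0.097 without wild-type replicates 2, 3 and 4. With the Y-linked genes as a covariate the difference was 0.52 (adjusted p = 0.052), and with a gene value taken as the probe set median it was 0.37 (adjusted p = 0.404). With the brighter part of the probe sets alone it was 0.51 (adjusted p = 0.0727).

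Every one of the 15 Syn3 probe sets had a higher mean in Cic-L-null cerebella. The probe set differences ran from 0.12 to 1.02, with a median of 0.52. The groups did not overlap for 7 of the 15, all higher, against 2.39% of all probe sets in that direction. Probe set 10371479 read 9.19, 8.89, 8.99 and 9.15 in Cic-L-null cerebella, against 8.07, 7.93, 8.50 and 7.88 in wild-type cerebella, a difference of 0.95 (SE 0.15). Its neighbour by number, 10371478, read 9.07, 9.40, 9.26 and 9.41 in Cic-L-null cerebella, against 8.77, 8.52, 8.47 and 8.34 in wild-type cerebella. In both, every Cic-L-null value was above every wild-type value.

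The largest probe set difference was that of 10371471, with 7.66, 7.82, 7.89 and 8.19 in Cic-L-null cerebella, against 7.13, 7.09, 6.77 and 6.47 in wild-type cerebella. At the other end, 10371469 differed by 0.12 (SE 0.26) and 10371481 by 0.14 (SE 0.14), both with overlapping groups. Whether the Syn3 probe sets differ from each other in this was not tested. No probe set of Syn3 was called among 241576, where 1 was called in all (0.000414%). The smallest limma adjusted p for Syn3 was 0.291, and 9 of the 15 had an unadjusted p under 0.05, against 6.8% of all probe sets. Probe sets of a gene share the same 8 RNA samples and are not replicates, and the files do not say which exons they cover.

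**Figure D2:**
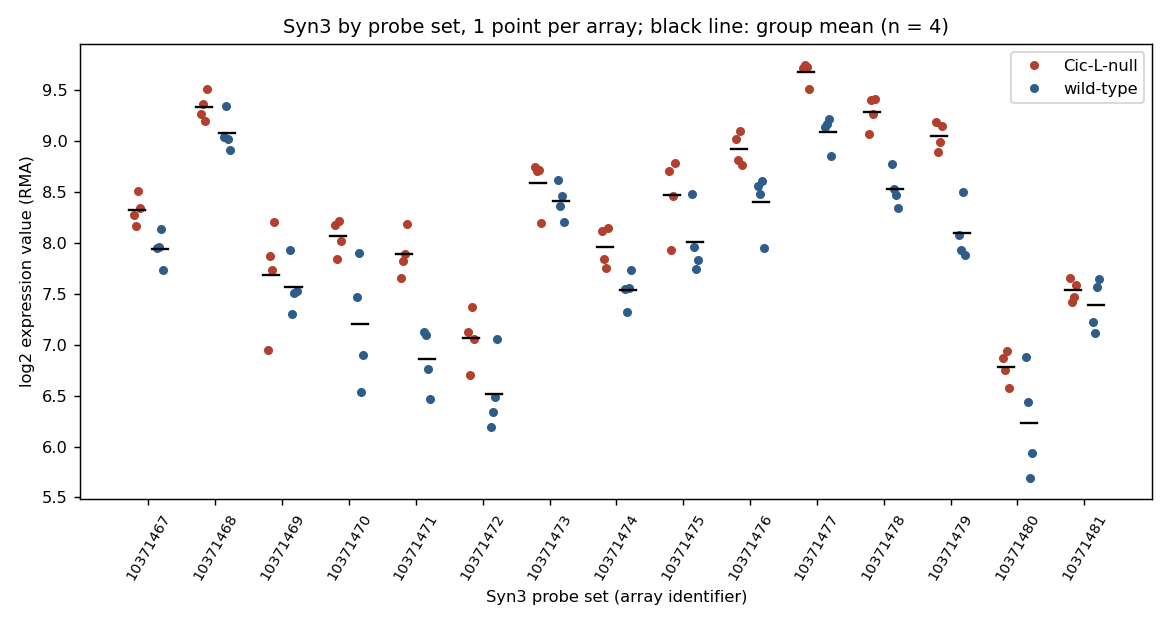
Log2 expression value (vertical axis) of each of the 15 Syn3 probe sets (horizontal axis, array identifiers), with 1 point per array, Cic-L-null left of wild-type, and the group mean as a black line. The Cic-L-null mean is the higher one in all 15, with the widest gap, 1.02, at 10371471 and the narrowest, 0.12, at 10371469.

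The differences of Syn2 and Syn1 were smaller in size, and neither gene was called. Syn2 had 10.67, 10.62, 10.61 and 10.62 in Cic-L-null cerebella, against 10.50, 10.56, 10.55 and 10.53 in wild-type cerebella. All 4 Cic-L-null values were the higher ones, yet the difference was 0.099 (SE 0.051, limma adjusted p = 0.614), since the fit draws its error in part from the spread of all genes. Taken as the median of its probe sets, Syn2 differed by 0.20 (limma adjusted p = 0.481), beside 0.37 for Syn3. Of the 16 Syn2 probe sets, 15 had a higher Cic-L-null mean. Syn1 had 9.99, 10.02, 10.14 and 10.04 in Cic-L-null cerebella, against 10.23, 10.12, 10.05 and 10.12 in wild-type cerebella. Its groups overlapped, with a difference of -0.083 (SE 0.062, limma adjusted p = 0.764) and 14 of 16 probe sets below 0. Without wild-type replicate 1 it was -0.050. Whether the synapsin differences differ from each other was not tested.

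Each synapsin gene has a gene of a tissue inhibitor of metalloproteinases within its span in the GRCm38.p6 annotation, Timp1 in Syn1, Timp4 in Syn2 and Timp3 in Syn3. Timp3 had 9.36, 9.42, 9.14 and 9.30 in Cic-L-null cerebella, against 9.23, 9.30, 9.14 and 9.28 in wild-type cerebella. Its groups overlapped and its difference was 0.067 (SE 0.072, limma adjusted p = 0.857), beside the 0.52 of its host Syn3. The Timp3 difference was 0.029, 0.12 and 0.034 without Cic-L-null replicate 2, Cic-L-null replicate 3 and wild-type replicate 3. Timp4 had 10.25, 10.41, 10.29 and 10.35 in Cic-L-null cerebella, against 10.60, 10.69, 10.50 and 10.55 in wild-type cerebella. All of its Cic-L-null values were the lower ones, the opposite side from its host Syn2, but the difference of -0.26 (SE 0.063) did not pass over all genes (limma adjusted p = 0.185). Timp1 lay below the level of silent genes, at 5.99 in Cic-L-null and 6.02 in wild-type cerebella.

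Promoter windows from RefSeq (build GRCm38.p6, 250 bases before to 50 after the start) were at hand for 30 of the 44 members, as 40 windows of 300 bases. Syn3, Syngr3, Syt4, Syt5, Syt7, Syt12, Syt13, Syt17, Doc2a, Doc2b, Vamp2, Vamp3, Snap25 and Rims2 had no entry in the table. Both strands were searched for 3 motifs. The octamer bound by Capicua was searched as TGAATGAA, TGAATGGA, TCAATGAA and TCAATGGA, the cyclic AMP response element as TGACGTCA, and a half-site of REST, the repressor of neuronal genes outside the nervous system, as TTCAGCACC. The Capicua octamer stood in 2 member windows (3.84% of all 32851 windows hold it), the cyclic AMP response element in 1 (1.79%) and the REST half-site in 2 (0.371%). No 2 matches overlapped. The 4 windows with a match are shown because they are the ones in which these letters can be seen beside the values of their genes. They read 5′ to 3′ on the strand of the gene, in lower case with the matched letters in capitals.
Bsn, chr9:108190334-108190633, minus strand: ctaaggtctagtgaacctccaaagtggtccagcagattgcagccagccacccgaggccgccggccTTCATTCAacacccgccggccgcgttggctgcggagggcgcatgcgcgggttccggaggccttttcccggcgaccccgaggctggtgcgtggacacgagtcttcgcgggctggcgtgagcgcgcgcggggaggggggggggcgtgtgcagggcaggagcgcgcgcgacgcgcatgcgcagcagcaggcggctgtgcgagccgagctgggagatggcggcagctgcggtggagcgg
Unc13c, chr9:73968988-73969287, minus strand: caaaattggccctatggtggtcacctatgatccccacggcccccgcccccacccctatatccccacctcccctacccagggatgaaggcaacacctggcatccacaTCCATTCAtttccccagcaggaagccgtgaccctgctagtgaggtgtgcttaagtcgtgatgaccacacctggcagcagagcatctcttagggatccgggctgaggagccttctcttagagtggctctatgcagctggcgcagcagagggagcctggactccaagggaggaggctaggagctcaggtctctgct
Syn1, chrX:20920869-20921168, minus strand: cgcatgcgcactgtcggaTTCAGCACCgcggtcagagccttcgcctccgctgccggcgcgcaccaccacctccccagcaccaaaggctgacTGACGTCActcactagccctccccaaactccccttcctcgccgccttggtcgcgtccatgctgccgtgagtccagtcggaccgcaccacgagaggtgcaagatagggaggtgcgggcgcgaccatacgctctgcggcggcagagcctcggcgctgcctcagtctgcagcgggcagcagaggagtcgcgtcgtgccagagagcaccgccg
Unc13a, chr8:71671708-71672007, minus strand: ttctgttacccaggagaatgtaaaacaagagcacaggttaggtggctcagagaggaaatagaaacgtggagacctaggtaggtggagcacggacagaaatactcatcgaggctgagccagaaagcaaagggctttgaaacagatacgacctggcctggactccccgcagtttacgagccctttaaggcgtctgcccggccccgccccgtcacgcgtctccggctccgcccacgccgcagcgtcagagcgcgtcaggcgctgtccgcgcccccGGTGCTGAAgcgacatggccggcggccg
In Bsn and Unc13c the capitals are the Capicua octamer read on the opposite strand, TGAATGAA from base -185 and TGAATGGA from base -144, counted from the start. In Syn1 they are the REST half-site from base -232 and the cyclic AMP response element from base -159. In Unc13a they are the REST half-site on the opposite strand, from base 22 after the start. Bsn and Unc13c differed by 0.12 (SE 0.071) and 0.049 (SE 0.094) and neither was called. A match describes the letters in the window and no more.

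Among the other membrane proteins of the vesicle 0 of 7 were called by limma, 1 had an unadjusted p under 0.05, and the median difference was 0.072. Synaptophysin (Syp), an abundant vesicle protein and a partner of synaptobrevin, averaged 11.86 ± 0.026 in Cic-L-null and 11.85 ± 0.019 in wild-type cerebella (SD, n = 4 each). The 95% interval of its difference ran from -0.10 to 0.12. Its relatives of the same family of 4-pass membrane proteins went to either side. Syngr3, synaptogyrin 3, had 9.90, 9.89, 9.85 and 9.79 in Cic-L-null cerebella, against 10.04, 10.01, 9.92 and 10.04 in wild-type cerebella. The groups did not overlap, and the difference was -0.15 (SE 0.057, limma adjusted p = 0.445) with all 5 probe sets below 0.

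Syngr1, synaptogyrin 1, had 11.168, 10.979, 11.098 and 11.067 in Cic-L-null cerebella, against 10.988, 10.995, 10.912 and 10.892 in wild-type cerebella. Its difference of 0.13 (SE 0.061, limma adjusted p = 0.552) had all 5 probe sets above 0, and Cic-L-null replicate 2 lay among the wild-type values. Synpr, synaptoporin, had 8.98, 8.84, 8.51 and 8.64 in Cic-L-null cerebella, against 8.60, 8.59, 8.10 and 8.60 in wild-type cerebella. The difference of 0.27 (SE 0.13, limma adjusted p = 0.598) rested in part on wild-type replicate 3, and was 0.14 without it. The SV2 proteins are vesicle glycoproteins that support priming and bind synaptotagmin. Sv2a, Sv2b and Sv2c differed by 0.072 (SE 0.056), -0.027 (SE 0.057) and 0.15 (SE 0.092).

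The synaptotagmins and Doc2 proteins, which carry paired C2 domains, went both ways, 7 above and 8 below 0 with a median of -0.0071. Of the 15, 0 were called by limma and 5 had an unadjusted p under 0.05, 3 higher and 2 lower. Syt1, the calcium sensor of fast release, had 11.78, 11.76, 11.74 and 11.74 in Cic-L-null cerebella, against 11.61, 11.68, 11.60 and 11.60 in wild-type cerebella. The groups did not overlap, and all 13 probe sets were above 0. The difference was 0.13 (SE 0.052, limma adjusted p = 0.443). Syt2, a sensor of the same kind that is prominent in the hindbrain, lay on the other side, from 9.99 to 10.10 in Cic-L-null and from 10.11 to 10.26 in wild-type cerebella. Its groups did not overlap either, at a difference of -0.091 (SE 0.060, limma adjusted p = 0.717). Wild-type replicate 1, with the other extraction label, gave the highest Syt2 value.

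Syt17, also known as B/K protein, had 7.349, 7.490, 7.088 and 7.455 in Cic-L-null cerebella, against 7.073, 7.158, 7.051 and 7.004 in wild-type cerebella. Its difference of 0.27 (SE 0.088, limma adjusted p = 0.332) was the highest of the class, and Cic-L-null replicate 3 lay among the wild-type values. Syt3, one of the high-affinity synaptotagmins, had 8.63, 8.56, 8.76 and 8.65 in Cic-L-null cerebella, against 8.97, 8.82, 8.93 and 8.74 in wild-type cerebella. Its difference of -0.21 (SE 0.071, limma adjusted p = 0.345) was the lowest of all 44 members, with all 11 probe sets below 0. The groups of Syt3 overlapped by Cic-L-null replicate 3 and wild-type replicate 4. Syt9 and Syt5 had unadjusted p-values under 0.05 at differences of 0.17 (SE 0.068) and -0.16 (SE 0.071), with all 8 probe sets of Syt9 above 0.

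None of the other sensors had an unadjusted p under 0.05. Syt7, known for slow and asynchronous release, differed by 0.068 (SE 0.055), Doc2a by 0.070 (SE 0.11) and Doc2b by 0.026 (SE 0.086). Doc2 proteins are high-affinity sensors linked to spontaneous release. Syt4 and Syt11, a related pair, differed by 0.023 (SE 0.069) and -0.073 (SE 0.059), Syt12 and Syt13 by -0.11 (SE 0.079) and -0.11 (SE 0.069), and Syt6 by -0.0071 (SE 0.080). All 10 probe sets of Syt12 were below 0. Syt10, which in mouse olfactory bulb neurons controls secretion of insulin-like growth factor 1, differed by -0.19 (SE 0.10). Its lowest value, 7.59, came from Cic-L-null replicate 2, and the other Cic-L-null values ran from 7.99 to 8.02.

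Chromosome 7, which carries Cic, also holds 6 members, Syt3, Syt5, Syt9, Syt17, Doc2a and Sv2b. Of these 6, 4 had an unadjusted p under 0.05, Syt9 and Syt17 with higher and Syt3 and Syt5 with lower Cic-L-null means. Of the 38 members on other chromosomes 5 had one. Among all genes the share was 12.4% on chromosome 7 without Cic and 8.96% elsewhere. The split by chromosome was chosen after the values were seen, carries no test, and 0 of the 6 were called by limma. Ap2a1, Slc17a7 and Th, which are described below and were not called, lie on chromosome 7 as well.

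The SNARE proteins and complexins showed 0 of 9 calls by limma, 1 unadjusted p under 0.05 and a median difference of 0.014. Snap25, the plasma membrane SNARE of neurons, averaged 12.09 ± 0.055 in Cic-L-null and 12.15 ± 0.057 in wild-type cerebella (SD, n = 4 each), with a 95% interval of the difference from -0.19 to 0.069. Its ubiquitous relative Snap23 differed by 0.053 (SE 0.10), and Stx1a, syntaxin 1A, by 0.043 (SE 0.079). Vamp2, the major vesicle SNARE of the brain, also known as synaptobrevin 2, had 11.26, 11.24, 11.23 and 11.19 in Cic-L-null cerebella, against 11.15, 11.14, 11.13 and 11.16 in wild-type cerebella. Its groups did not overlap, and the difference was 0.081 (SE 0.051, limma adjusted p = 0.695), or 0.13 when taken as the median of its probe sets (limma adjusted p = 0.682).

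Vamp1, the paralogue that prevails in hindbrain and spinal cord, had 9.05, 9.30, 9.19 and 9.06 in Cic-L-null cerebella, against 9.33, 9.14, 9.34 and 9.42 in wild-type cerebella. The groups overlapped at a difference of -0.16 (SE 0.080, limma adjusted p = 0.599), with all 7 probe sets below 0. Vamp3, cellubrevin, of which most cell types make some, differed by 0.0054 (SE 0.058). Complexins clamp and promote fusion. Cplx2 had 9.64, 9.14, 9.36 and 9.32 in Cic-L-null cerebella, against 9.16, 8.85, 9.19 and 9.17 in wild-type cerebella. Its difference of 0.27 (SE 0.11, limma adjusted p = 0.471) leaned on a dim probe set, 10405259, which read 5.88 in Cic-L-null replicate 1 and between 2.47 and 3.49 elsewhere. Taken as the median of its probe sets, Cplx2 differed by 0.14, and without Cic-L-null replicate 1 by 0.18. Cplx1, the complexin of fast synapses, differed by 0.012 (SE 0.059) and Cplx3 by 0.014 (SE 0.11).

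**Figure D3:**
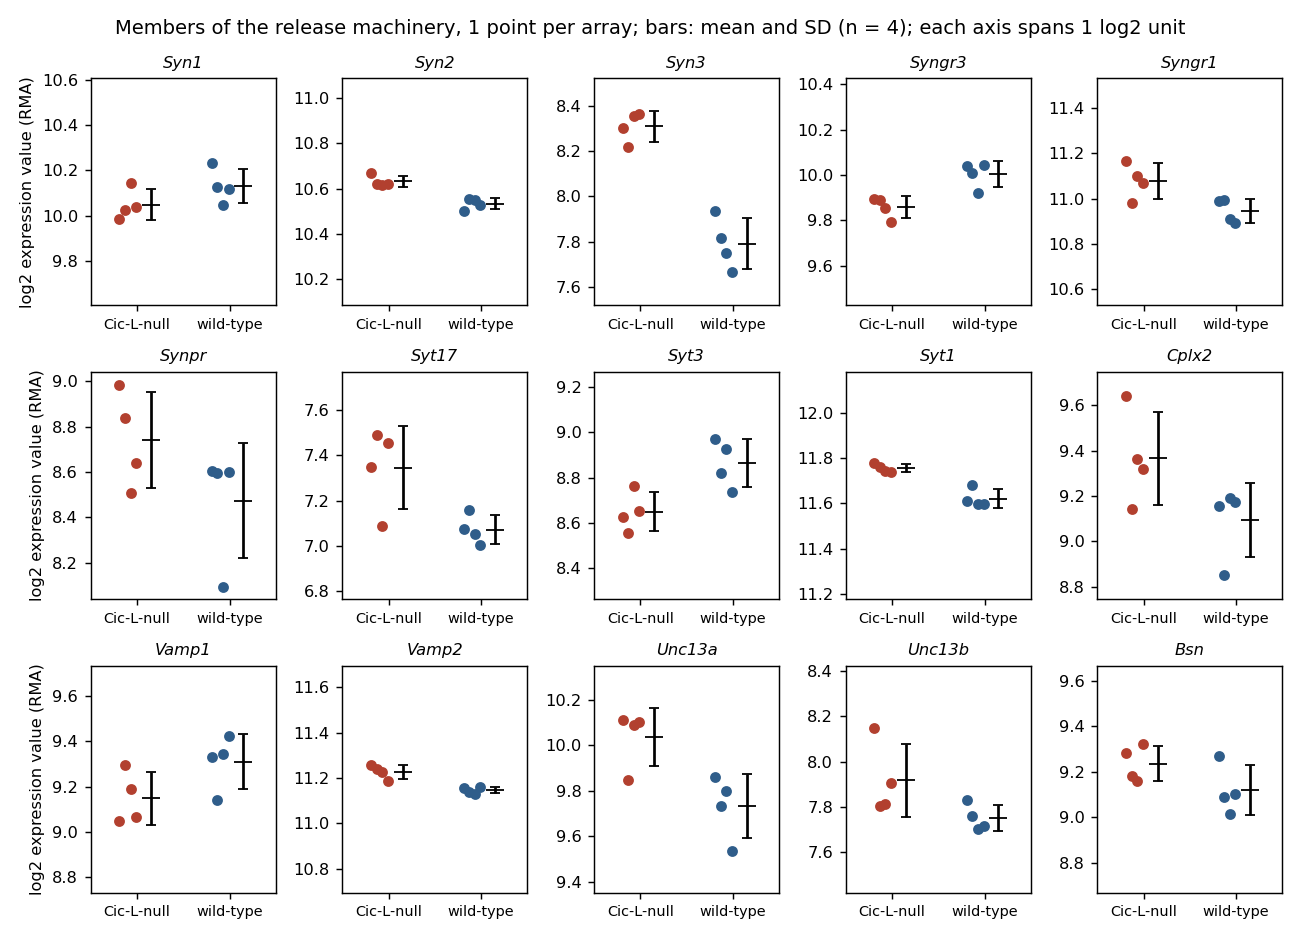
Log2 expression value (vertical axes, each 1 log2 unit tall) of the 15 members with values given for every array, Cic-L-null left of wild-type, 1 point per array with mean and SD (n = 4) beside them. Syn3, from 8.22 to 8.36 in Cic-L-null and from 7.66 to 7.93 in wild-type cerebella, shows the widest gap, while Vamp2 and Syn2 separate by a narrow one.

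Of the 10 active zone and priming genes 9 lay above 0, and their median difference was 0.058. None of the 10 was called by limma, and 1, Unc13a, had an unadjusted p under 0.05. Unc13a encodes Munc13-1, the priming factor on which most glutamate release depends. It had 10.11, 9.85, 10.09 and 10.10 in Cic-L-null cerebella, against 9.86, 9.73, 9.80 and 9.54 in wild-type cerebella. Cic-L-null replicate 2 fell just below wild-type replicate 1, and the other Cic-L-null values lay above all wild-type values. The difference was 0.30 (SE 0.087, 95% interval 0.11 to 0.50, limma adjusted p = 0.267), or 1.24-fold, the largest after Syn3.

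Of the 48 Unc13a probe sets, 45 were above 0, with a median of 0.27, and 8 had groups that did not overlap, all higher, against 2.39% of all probe sets in that direction. Probe set 10579588 read 8.11, 8.28, 8.44 and 8.36 in Cic-L-null cerebella, against 7.95, 7.44, 7.58 and 7.83 in wild-type cerebella. This was a difference of 0.60 (SE 0.13) with no overlap. The largest difference, 1.15 (SE 0.48), was that of 10579593, which read 10.99, 10.28, 10.38 and 11.18 in Cic-L-null cerebella, against 9.01, 10.03, 10.74 and 8.44 in wild-type cerebella. There wild-type replicate 3 exceeded Cic-L-null replicates 2 and 3, so that the groups overlapped.

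The other Munc13 genes lay closer to 0. Unc13b, Munc13-2, had 8.149, 7.803, 7.813 and 7.905 in Cic-L-null cerebella, against 7.832, 7.760, 7.704 and 7.714 in wild-type cerebella. Its groups overlapped through wild-type replicate 1, and the difference was 0.17 (SE 0.081, limma adjusted p = 0.59). With the brighter part of its probe sets alone it was 0.053, and without Cic-L-null replicate 1 it was 0.088. Unc13c, Munc13-3, which is known from cerebellar granule cells, differed by 0.049 (SE 0.094).

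Among the scaffolds, Bsn, Bassoon, had 9.28, 9.18, 9.16 and 9.32 in Cic-L-null cerebella, against 9.27, 9.09, 9.01 and 9.10 in wild-type cerebella. The groups overlapped through wild-type replicate 1, at a difference of 0.12 (SE 0.071, limma adjusted p = 0.686). Taken as the median of its probe sets, Bsn differed by 0.0061. Piccolo (Pclo), its relative, differed by 0.12 (SE 0.10). The ELKS genes Erc1 and Erc2, which hold active zone proteins together, differed by 0.017 (SE 0.067) and 0.068 (SE 0.13). Rab3a, the GTPase that brings vesicles to RIM, and Rims1 differed by 0.036 (SE 0.057) and 0.042 (SE 0.059). Rims2 was the member of the class below 0, at -0.083 (SE 0.11). Its lowest value, 10.27, came from Cic-L-null replicate 2, while the other Cic-L-null values ran from 10.71 to 10.74.

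**Figure D4:**
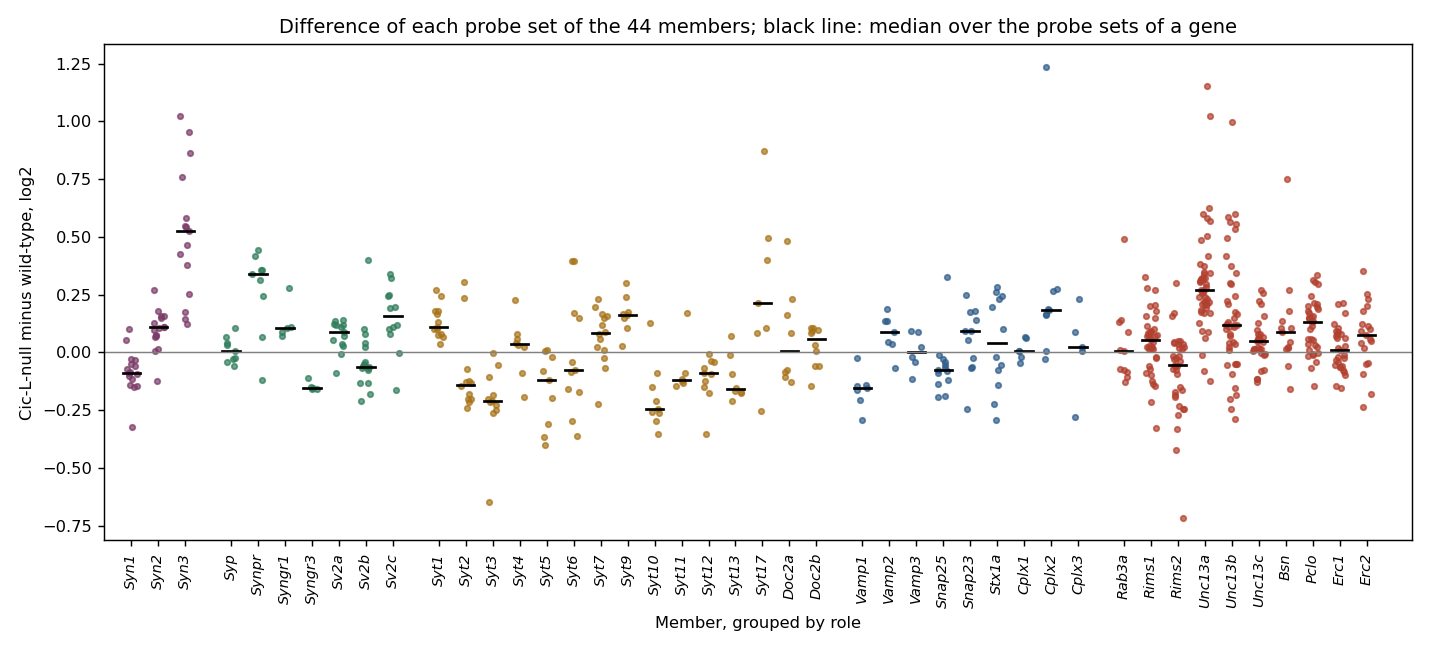
Difference of every probe set of the 44 members in log2 units (vertical axis, Cic-L-null minus wild-type), by gene and role (horizontal axis), with the median of each gene as a black line. The 15 points of Syn3 all lie above 0 around a median of 0.52, and 45 of the 48 points of Unc13a lie above 0 around a median of 0.27.

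Over all 636 probe sets of the members, 393 were above 0. None was called by limma, where 1 of all 241576 was (0.000414%). An unadjusted p under 0.05 was found for 54 of the 636, beside 6.8% of all probe sets. The groups did not overlap for 40 probe sets in the higher direction (6.29%) and 21 in the lower (3.3%), against 2.39% and 1.91% of all probe sets. Syn3 and Unc13a together gave 15 of the 40. Snap25 had 12 of its 13 probe sets below 0, of which 4 had no overlap between the groups, with differences down to -0.19. Its remaining probe set, 10476519, had no overlap in the higher direction, at 0.33 (SE 0.12).

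The rest of the release pathway was followed through 3 further lists, of which 0 genes were called by limma. Of 40 measured genes of release and fusion outside the member list, 19 were above and 21 below 0, with a median of -0.0019 and 2 unadjusted p-values under 0.05. These were Rab3b, a paralogue of Rab3a, at 0.29 (SE 0.080, limma adjusted p = 0.246), and Rab3gap1, a subunit of the complex that inactivates Rab3, at -0.15 (SE 0.057, limma adjusted p = 0.428). Rab3b had 7.22, 7.44, 7.18 and 7.29 in Cic-L-null cerebella, against 7.10, 7.02, 6.82 and 7.02 in wild-type cerebella. Rab3gap1 had 9.21, 9.30, 9.33 and 9.22 in Cic-L-null cerebella, against 9.45, 9.41, 9.34 and 9.45 in wild-type cerebella. Neither gene had overlapping groups. Taken as the median of their probe sets, they differed by 0.55 and -0.037.

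Of 27 measured genes of vesicle recycling and its chaperones, 15 were above 0, with a median of 0.0057 and 1 unadjusted p under 0.05. That was Itsn1, the endocytic scaffold intersectin, at 0.14 (SE 0.061, limma adjusted p = 0.505). Ap2a1, a subunit of the clathrin adaptor, differed by -0.32 (SE 0.15, limma adjusted p = 0.571). Its difference was -0.13 without Cic-L-null replicate 1, which read 9.42 where the other Cic-L-null values ran from 10.12 to 10.23. Of 15 measured transmitter loading and proton pump genes, 10 were above 0, with a median of 0.030. The amino acid transporter gene Slc6a17 of synaptic vesicles differed by 0.16 (SE 0.057, limma adjusted p = 0.378), the 1 gene of that list with an unadjusted p under 0.05. The vesicular glutamate transporter gene Slc17a7 differed by 0.13 (SE 0.059, limma adjusted p = 0.543). In the transmitter loading list the groups did not overlap for Slc6a17 and Slc17a7, both higher, and Atp6v1e1, lower. Groups also did not overlap for Ap2a1 and for Napb of the release and fusion list, both lower. Over all genes this held for 3.02% in the higher direction and 2.91% in the lower.

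Markers of the cells that make or surround these synapses were read beside the members. Slc17a7, Slc17a6 and Slc32a1 stand both in these marker lists and in the transmitter loading list. All 10 granule cell and 9 measured Purkinje cell markers were above the level of silent genes, as were 2 of 6 measured forebrain and brainstem markers. Those 6 had a median difference of -0.0061, 0 calls by limma and 4 unadjusted p-values under 0.05, 2 in each direction. Th, above the silent level, differed by 0.58 (SE 0.11, limma adjusted p = 0.096), without overlap. Hoxb3, also above it, differed by -0.31 (SE 0.091, limma adjusted p = 0.288). Granule cell markers had a median difference of 0.012, with 5 above and 5 below 0 and 0 calls by limma. Their mean level ran from 11.73 to 11.78 over the Cic-L-null arrays and from 11.68 to 11.77 over the wild-type arrays. Reln, the 1 with an unadjusted p under 0.05, differed by 0.32 (SE 0.064, limma adjusted p = 0.096). The groups of 2 granule cell markers, Reln and Slc17a7, did not overlap, both with Cic-L-null higher. Over all genes this held for 3.02% in the higher direction and 2.91% in the lower. It also held for 1 Purkinje cell and 2 forebrain and brainstem markers, higher, and for 5 oligodendrocyte and 2 endothelial markers, lower. Bergmann glia and astrocyte markers had 1 such gene higher and 3 lower, and unipolar brush and nuclear neuron markers 1 each way. Purkinje cell, interneuron, and unipolar brush and nuclear neuron markers had medians of 0.030, 0.011 and 0.10, with 0 calls by limma and 1, 1 and 2 unadjusted p-values under 0.05. Mature oligodendrocyte markers were below 0 in 9 of 9, with a median of -0.12 and mean levels from 10.37 to 10.47 in Cic-L-null and from 10.56 to 10.60 in wild-type arrays. Bergmann glia and astrocyte markers had 8 of 10 below 0, a median of -0.086 and mean levels from 9.39 to 9.47 in Cic-L-null and from 9.52 to 9.66 in wild-type arrays. Of these, Fabp7, the fatty acid binding protein of Bergmann glia, was called lower, and 0 oligodendrocyte markers were called by limma, with 3 unadjusted p-values under 0.05. Microglia, endothelial and choroid plexus markers had medians of -0.015, -0.11 and -0.16, with 0 calls by limma and 0, 3 and 1 unadjusted p-values under 0.05 among 8 genes each. The mean choroid plexus level ran from 7.35 to 8.51 over the Cic-L-null arrays, against 7.98 to 8.41 over the wild-type arrays. Relative to the mean of all arrays, the median choroid plexus marker was lowest in Cic-L-null replicate 3 (-0.71) and highest in Cic-L-null replicate 1 (0.43). For the oligodendrocyte and the Bergmann glia and astrocyte lists the mean levels of the groups did not overlap. The Bergmann glia and astrocyte mean includes Fabp7, which had the largest difference of that list, -1.17. By the median marker relative to the mean of all arrays, that list did overlap. It was at -0.015 in Cic-L-null replicate 1 and -0.032 in wild-type replicate 3. The part of both lists in the member differences was not tested. Over the 44 members the mean level ran from 9.51 to 9.60 in Cic-L-null and from 9.49 to 9.56 in wild-type arrays, with overlap.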

How the data were processed

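Cerebellum RNA was measured on 8 arrays. The deposited values are log2 expression values, made by the authors with RMA and Affymetrix Power Tools as the submitters' processing notes list them. For neither tool is a version known here, and the build behind the probe sets is not given in the sources used. RMA equalises the arrays, whose medians ran from 7.82 to 7.88. Arrays give no read depth, and the number of arrays limits the precision.

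Probe sets with 1 symbol in the platform annotation (212097) were averaged by gene after symbols were updated through the GRCm38.p6 gene table. The 4475 probe sets with several symbols, among them some shared by Doc2a and Ino80e and by Syt6 and Atg4a, and the 25004 with none stayed out. Genes and, separately, all probe sets were fitted with limma 3.58.1 in R 4.3.3 (lmFit, eBayes without trend), with the group as the only term and Benjamini-Hochberg adjustment over the whole table. The fit was tested on simulated data. The members and gene lists were chosen with earlier results of these data known. Values in every array were given for called members, the synapsins and the 3 members with the smallest p in each role, and in each related list the 2 genes with the smallest p were named. Members or probe sets named beyond this were chosen after their values were seen. Alternatives covered the gene value, dim genes, normalisation, variance, array weights, a Y-linked covariate, a replicate block and each array left out. Listed genes without a value are not analysed here. The labels number the samples 1 to 4 in each group but do not say that a number marks a shared litter or day.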

Additional observations from a re-analysis of the deposited data

Results flagged for a closer look

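In 9 of 108 groups of 4 arrays, 1 array stood apart from the other 3 by a gap beyond Dixon's 95% critical value, where chance gives about 1 in 20. The groups covered Cic, the 44 members and the related genes named above. Cic-L-null replicate 2 was the low array for Syt10 (7.59, the others from 7.99 to 8.02), Rims2 (10.27, the others from 10.71 to 10.74) and Unc13a (9.85, the others from 10.09 to 10.11). Without that array the Unc13a difference was 0.37 instead of 0.30. Cic-L-null replicate 1 was high for Syn2 (10.67, the others from 10.61 to 10.62) and low for Ap2a1 (9.42, the others from 10.12 to 10.23). Wild-type replicate 2 was high for Syt1 (11.68, the others from 11.60 to 11.61) and low for Cplx2 (8.85, the others from 9.16 to 9.19). Wild-type replicate 3 was low for Synpr (8.10, the others from 8.59 to 8.60), and wild-type replicate 1 was high for Syt2 (10.26, the others from 10.11 to 10.12).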

How the results depend on the processing

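The Syn3 difference kept its sign in all 17 alternatives, from 0.37 to 0.57, and its call in 6. It lost the call with the probe set median (0.37), the brighter probe sets (0.51), Y-linked genes as a covariate (0.52) and a replicate block (0.52, adjusted p = 0.0824), and when 1 array was left out in 7 of 8 cases (0.48 to 0.57). The members called were then 0 with each of those 4 settings and 0 to 1 with 1 array left out, and Syn3 was the 1 member called elsewhere. At an unadjusted p under 0.05 there were 7, 13, 7 and 11 members in those 4 settings, and 5 to 12 with 1 array left out, against 9 in the reported fit. Genes called over the whole table, 28 in the reported fit, were 2 with the median of the probe sets, 12 with their brighter part, 69 above the dim limit, 130 with a trended and robust variance, 54 with array weights, 18 with the Y-linked covariate, 0 with the replicate block (2125 at an unadjusted p under 0.05) and 0 to 37 with 1 array left out. The deviations of same-numbered arrays correlated at 0.219, 0, 0.207 and 0.026 for replicates 1 to 4. Those of differently numbered arrays correlated between -0.227 and 0.125. Whether the replicate numbers pair the samples was not tested, and the labels do not say. The median over the members stayed between 0.021 and 0.050. The dim Timp1 changed sign with the probe set median (0.027) and when Cic-L-null replicate 1 (0.022) or wild-type replicate 2 (0.0038) was left out, within a range of -0.061 to 0.022 over the arrays left out. Timp4 was called with the trended and robust variance, where its adjusted p was 0.035. The other genes recomputed kept their sign and side of the threshold. The causes were not tested.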
